A study of Homo sapiens with 10 samples.

Results

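The 51 genes described here are androgen-responsive genes, which prostate epithelial cells are known to transcribe more or less strongly when androgen is present. They were taken by symbol from a list, and kallikreins, prostate surface antigens, lineage factors and genes of polyamine and lipid synthesis had been left off it, apart from ELOVL5. All 51 were among the 57353 gene symbols of the count table and among the 17230 that passed the expression filter and were tested. The measurement was RNA sequencing of LNCaP-C4-2, a castration-resistant human prostate cancer cell line that grows with little androgen, in 10 samples of 4 transduced lines. CPT1A, whose level was changed in 2 of the lines, is the enzyme that loads long-chain fatty acids onto carnitine for import into mitochondria.

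The NT line (2 samples) carried a scrambled, non-targeting shRNA and the KD line (3 samples) an shRNA against CPT1A, both from lentivirus with selection in 1 ug/ml puromycin. The EV line (2 samples) carried an empty lentiviral vector and the OE line (3 samples) a CPT1A cDNA, both with selection in 5 ug/ml blasticidin. KD is therefore read against NT, and OE against EV. Each condition is 1 transduced line with 1 construct, so a p-value measures the spread between samples of a line, and the construct and the line cannot be told apart. The EV and NT lines differ in vector, drug and line at once, which cannot be told apart either. All 4 lines were grown in medium with fetal bovine serum, and the labels name no androgen added or withdrawn.

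Steroid hormones act on transcription through receptors that HSP90 and its co-chaperones hold until the hormone is bound. A bound receptor moves to the nucleus, binds DNA as a dimer at inverted repeats of a short half-site, and recruits coactivators and chromatin enzymes. In the prostate the targets of androgen include secretory proteins, membrane transporters, lipid and sugar enzymes, kinases and feedback regulators such as FKBP5, and several of them also respond to glucocorticoids, whose receptor reads nearly the same DNA element.

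CPT1A followed the labels, with 265 and 262 CPM in NT (counts scaled by TMM library size, the unit of every level here), 81.2, 86.4 and 86.2 in KD, 326 and 318 in EV and 869.9, 914 and 861 in OE. Depth was 23555205 to 28615770 counts per sample, so that 3 counts were worth 0.0995 to 0.136 CPM. The luminal prostate genes KLK3, KLK2, HOXB13 and FOXA1 had at least 8911 counts in every sample. The basal gene KRT5, the endothelial gene PECAM1 and the T cell gene CD3E had 0 counts in all 10, a level that still allows 3 counts per library, and TP63, CHGA, DCN and PTPRC had at most 1, LUM 2, CDH5 3 and LYZ 4. Other markers of the same lists were not empty, with 9 to 47 counts of the basal keratin KRT14, 45 to 88 of SYP and 347 to 1145 of ENO2 (neuroendocrine), 217 to 440 of COL1A1 and 2 to 54 of COL3A1 (stroma) and 159 to 226 of VWF (endothelium). KRT14 (1.97) and COL1A1 (0.63) were called higher in KD than in NT by the test described next, both lost without NT replicate 1 and the first also without NT replicate 2. ENO2 was lower in KD than in NT (-0.79) and higher in OE than in EV (1.12), all on the log2 scale. The part of these markers in the values of the androgen-responsive genes was not tested. The test was edgeR's quasi-likelihood F-test, from 1 model of the 4 lines, and a gene was called higher or lower at a Benjamini-Hochberg adjusted p under 0.0001, the limit used in the study. Adjusted p-values below come from that test, and ± after a log2 fold change is its standard error. In bulk RNA, less RNA of a gene per cell and fewer cells with that RNA cannot be told apart.

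The consensus androgen response element was searched in the genome, since direct targets can carry it. The element was written as AGAACA, 3 bases of any kind and TGTTCT, which reads the same on both strands, and the search covered each gene from 20 kb before it to 20 kb after it on hg38. It was present in 5 of the 51 genes (9.80%), against 284 of 14146 tested genes with a position (2.01%). The windows of the 51 were longer, with a median of 117 kb against 70.6 kb, and per megabase there were 0.636 and 0.190 elements. All 5 lay in introns. They are shown with 10 bases on either side and the 15 bases of the element in capitals.
FKBP5, chr6:35602072-35602106: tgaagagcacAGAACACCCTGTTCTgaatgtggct
ARID5B, chr10:62069590-62069624: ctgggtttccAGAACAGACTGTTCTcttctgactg
INPP4B, chr4:142193439-142193473: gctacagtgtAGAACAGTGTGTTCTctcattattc
ANKH, chr5:14842857-14842891: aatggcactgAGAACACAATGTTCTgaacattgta
XRCC5, chr2:216130425-216130459: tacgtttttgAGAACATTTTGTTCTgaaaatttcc
The FKBP5 element lies 126 kb after the start of the gene and that of INPP4B 654 kb after it, while those of ANKH and XRCC5 lie 28.9 and 22.98 kb after the start. These are matches of letters, and protein binding was not measured in these samples. Among RefSeq promoters on GRCh38.p14, from 250 bases before to 50 after the start, 39 of the 51 genes had an entry. A single half-site, AGAACA or TGTTCT, stood in 6 of the 39 (15.4%) and in 4790 of all 27305 promoters (17.5%), the 6 being FKBP5, SGK1, STK39, LIFR, TSC22D1 and PMEPA1. The whole element was in none of the 39 and in 1 of the 27305.

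Across the 4 lines, the androgen-responsive genes were lowest in NT. In 27 of the 51 genes (52.9%) both NT samples lay below the other 8, against 18.7% of all tested genes. The EV samples were the highest of the 10 in 10 genes (19.6%, against 4.96% of all genes), the OE samples in 12 (23.5%, against 18.3%) and the KD samples in 9 (17.6%, against 13.8%). The OE samples were the lowest in 8 genes (15.7%, against 17.3%). By line means, NT was lowest in 33 of the 51 and highest in 2, VAPA and PIAS1.

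**Figure D1:**
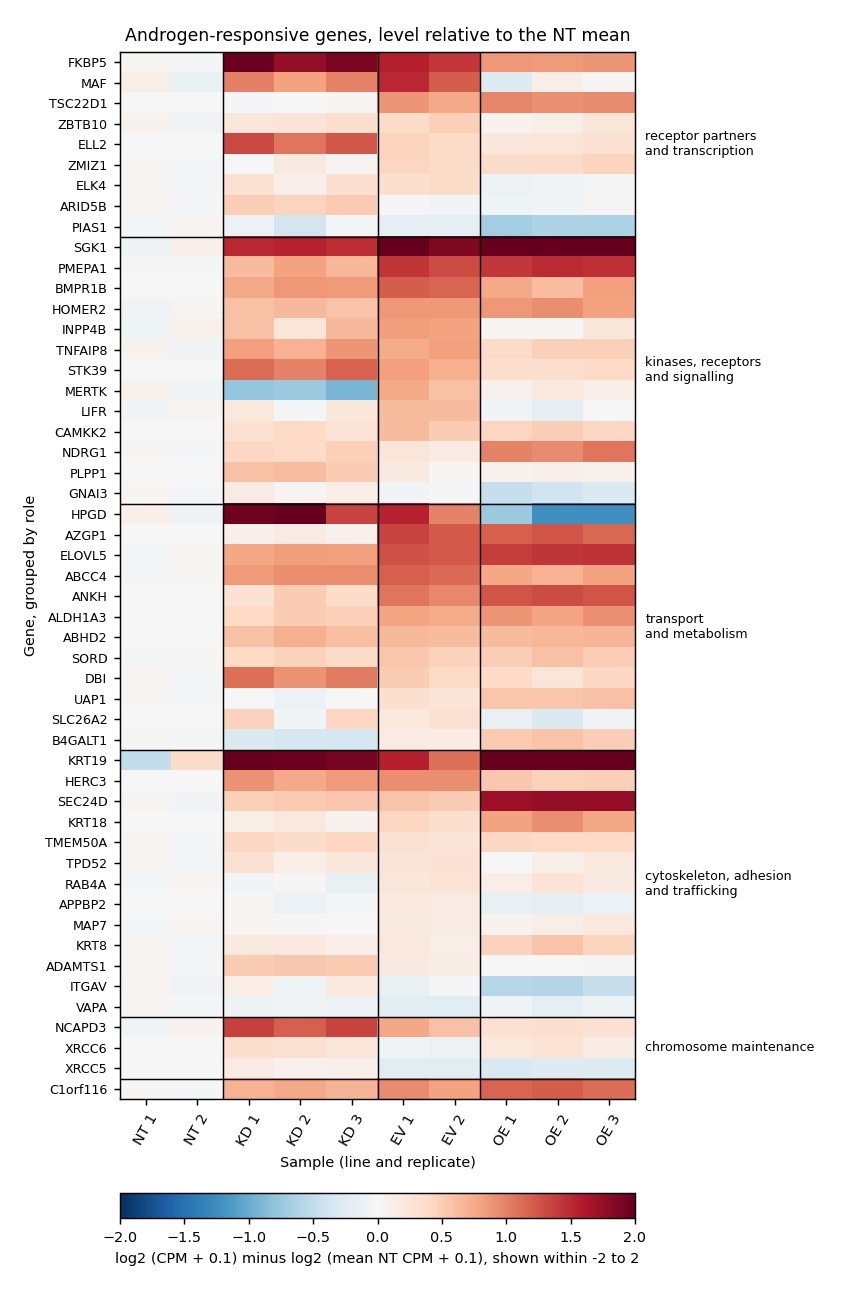
Heatmap of the 51 genes (rows, grouped by role) in the 10 samples (columns), coloured by log2 of CPM plus 0.1 minus the same value of the NT mean, with red above and blue below the NT mean. The KD, EV and OE columns are mostly red against NT, and each of the 3 is the highest line for a different set of genes.

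The difference between the control lines is given first, since each arm is read against its own control. In EV versus NT, 30 of the 51 genes were called higher (58.8%, against 5.25% of all tested genes) and 0 lower (against 2.91%). The median log2 fold change of the 51 was 0.51, against -0.004 over all tested genes, and 44 were above 0. At an unadjusted p under 0.05 by edgeR there were 3 lower genes, namely PIAS1, XRCC5 and VAPA, of which VAPA had the lowest log2 fold change, -0.23, and limma-voom called 0 lower and the DESeq2 Wald test 1. Without KD replicate 2 edgeR called 1 lower.

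In KD versus NT, 28 of the 51 were called higher (54.9%, against 16.4% of all tested genes) and 2 lower (3.92%, against 12.8%). Their median log2 fold change stood at 0.41, against -0.02 over all tested genes, and 43 of the 51 were above 0. The 2 lower genes were MERTK and B4GALT1, and without NT replicate 1 MERTK alone was called lower. All 10 genes of a proliferation list were also called higher there (median 1.63 on the log2 scale), and their part in the values of the androgen-responsive genes was not tested.

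In OE versus EV, 8 genes were called higher (15.7%, against 11.6% of all tested genes) and 16 lower (31.4%, against 10.3%), and the other 27 were not called. The median was -0.06, against -0.02 over all tested genes. These counts moved when single samples were left out, where the share of all tested genes called was not counted. Without EV replicate 1 there were 5 lower, without EV replicate 2 there were 3 higher and 8 lower, and without OE replicate 1 there were 9 lower. Of the same proliferation list, 4 of 10 were called higher and 1 lower in OE versus EV, the 1 being lost without any EV or OE sample, and in EV versus NT edgeR, DESeq2's Wald test and limma-voom each called 0, while 4 were higher and 2 lower at an unadjusted p under 0.05 by edgeR.

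EV versus NT shares its NT samples with KD versus NT and its EV samples with OE versus EV. Its calls are therefore not independent of those in either arm. The 2 arms share no sample and can be set side by side. Of the 28 genes called higher in KD versus NT, 7 were called lower in OE versus EV (25%), 4 were called higher (14.3%) and 17 were not called (60.7%). Of all 2823 tested genes called higher in KD versus NT, 5.81% were lower, 32.3% higher and 61.8% not called in OE versus EV. The 7 were FKBP5, MAF, STK39, BMPR1B, ABCC4, HERC3 and NCAPD3. The 4 called higher in both arms were NDRG1, SEC24D, XRCC6 and C1orf116.

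**Figure D2:**
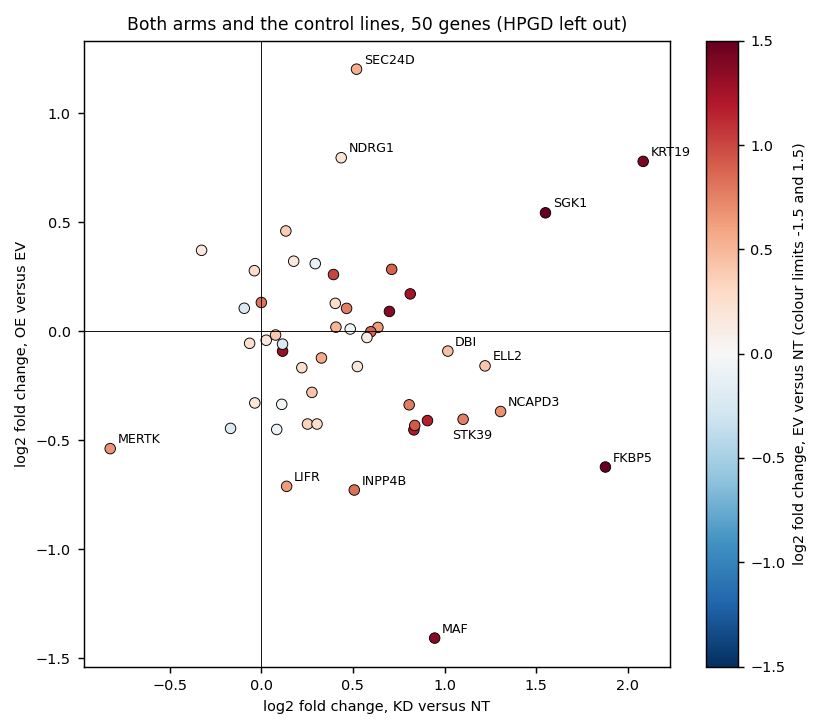
Scatter of the log2 fold change of 50 genes in KD versus NT (x axis) and OE versus EV (y axis), coloured by the log2 fold change in EV versus NT, with HPGD left out for its low counts. FKBP5, STK39, NCAPD3 and MAF lie at the lower right, SEC24D and NDRG1 at the upper right and MERTK at the lower left, and most points are red, as EV exceeded NT in 44 of the 51 genes.

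The study compared OE with KD after setting each against its control, which is the interaction, (OE minus EV) minus (KD minus NT). There, 26 of the 51 genes were called lower (51%, against 8.98% of all tested genes) and 2 higher (3.92%, against 6.94%), with a median of -0.48 against -0.02 over all tested genes. The 2 higher genes were SEC24D at 0.68 and B4GALT1 at 0.70, and without KD replicate 2 there were 4. When OE was compared with KD directly, with no control in the contrast, 17 genes were called higher (33.3%, against 15.5%) and 16 lower (31.4%, against 16.4%), and the median was -0.08. Of the 26 genes that were lower in the interaction, 13 were lower in the direct comparison, 4 were higher and 9 were not called. The 4 were ELOVL5, HOMER2, PMEPA1 and C1orf116. How all tested genes that were lower in the interaction divided in the direct comparison was not counted. The interaction and the direct comparison share their OE and KD samples and differ by the EV minus NT values. Of the 10 proliferation genes, 8 were called lower in the interaction (80%, against 8.98% of all tested genes, median -1.21). In the direct comparison all 10 were called lower (100%, against 16.4%, median -1.08). The part of proliferation in the values of the androgen-responsive genes was not tested.

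The remaining comparisons set each changed line against the control of the other arm. In KD versus EV, 10 genes were called higher (19.6%, against 9.15%) and 15 lower (29.4%, against 7.96%), and the lower count was 9 without KD replicate 1 and 7 without EV replicate 1 or EV replicate 2, where the higher count was 6 for EV replicate 2. In OE versus NT, 27 were called higher (52.9%, against 19.7%) and 4 lower (7.84%, against 17.3%), the 4 being PIAS1, GNAI3, ITGAV and XRCC5, with 1 without NT replicate 1. The medians were -0.09 in KD versus EV and 0.39 in OE versus NT, against -0.01 and -0.03 over all tested genes.

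**Figure D3:**
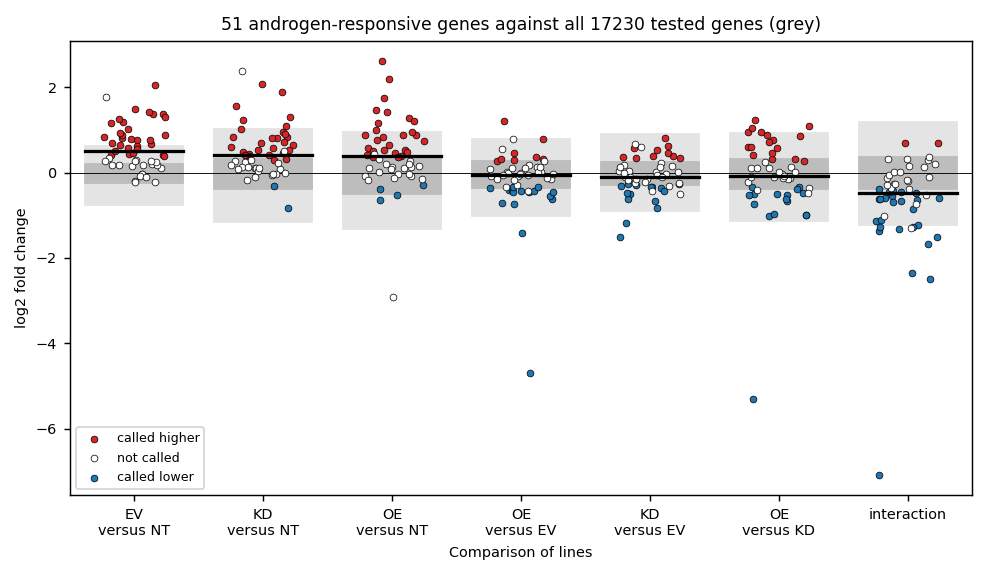
Log2 fold change (y axis) of the 51 genes in each comparison (x axis), with a point per gene (red called higher, blue called lower, white not called), a black line at the median of the 51, and pale and dark grey boxes for the middle 90% and 50% of all 17230 tested genes. The medians lie above 0 in the 3 comparisons with NT (0.51, 0.41 and 0.39), near 0 in OE versus EV, KD versus EV and OE versus KD, and below it in the interaction (-0.48), where HPGD is the lowest point, at a fitted value that depends on the prior count.

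Several steroid receptors were measured alongside. ESR1 had at most 1 count per sample, ESR2 at most 3 and PGR 1 to 18. NR3C1, the glucocorticoid receptor, had 0 to 12 counts per sample and was not tested, and NR3C2, the mineralocorticoid receptor, gave log2 values of -0.20 for KD against NT, -0.42 for OE against EV and -0.45 for EV against NT, none called. In a list of 16 tested genes on steroid receptor chaperones and coregulators, 2 were called higher in KD versus NT (12.5%, against 16.4% of all tested genes). In the same comparison 3 were called lower (18.8%, against 12.8%). KDM1A, a histone demethylase (0.55), and PTGES3, the co-chaperone p23 (0.25), were the higher ones, and 1 was left without NT replicate 1, NT replicate 2, KD replicate 1 or EV replicate 1, while there were 4 without OE replicate 2. HSP90AA1, the inducible HSP90 (-0.62), NCOA4 (-0.49) and NCOA2 (-0.36), both coactivators, were the lower ones. In OE versus EV, CREBBP, a histone acetyltransferase, was called higher (0.39) and HSP90AA1 lower (-0.80), and without KD replicate 2 there were 4 higher and 2 lower. With all samples each direction held 6.25% of the list, against 11.6% higher and 10.3% lower of all tested genes.

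Among the 9 steroid receptor partners and transcription regulators, 4 were called higher in KD versus NT (44.4%, against 16.4% of all tested genes). In EV versus NT 6 were called higher (66.7%, against 5.25%), and in OE versus EV 4 were called lower (44.4%, against 10.3%). FKBP5 (minus strand, chr6:35573585-35728583) encodes a co-chaperone that slows steroid receptors in their HSP90 complex and is itself an androgen target, and its intronic element is the first sequence shown above. FKBP5 stood at 99.4 and 96.1 CPM in NT, 386, 332 and 359.8 in KD, 288 and 262 in EV and 178, 177 and 181 in OE. The 4 lines did not overlap, with NT lowest, then OE, EV and KD. FKBP5 was higher in KD than in NT (1.88 ± 0.0598, adjusted p = 1.02e-17) and in EV than in NT (1.49 ± 0.063, adjusted p = 8.63e-15), and it was lower in OE than in EV (-0.62 ± 0.0549, adjusted p = 2.3e-09) and in OE than in KD (-1.01). OE still exceeded NT (0.87). The interaction was -2.50 ± 0.0803.

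MAF (minus strand, chr16:79585843-79600737), a basic leucine zipper transcription factor, had 12.7 and 10.6 CPM in NT, 23.6, 20.4 and 23.4 in KD, 33.2 and 27.02 in EV and 9.69, 12.7 and 11.8 in OE. The NT and OE samples overlapped, and the KD and EV samples lay above them. MAF was higher in KD than in NT (0.95 ± 0.11, adjusted p = 1.08e-07), higher in EV than in NT (1.37 ± 0.12) and lower in OE than in EV (-1.41 ± 0.11, adjusted p = 1.97e-10). ELL2 (minus strand, chr5:95885098-95961851), an RNA polymerase II elongation factor, had 58.9 and 57.8 CPM in NT, 146, 123 and 138.5 in KD, 79.1 and 77.1 in EV and 68.6, 68.9 and 72.3 in OE. Every KD sample lay above all others, and ELL2 was higher in KD than in NT (1.22 ± 0.0619, adjusted p = 3.44e-14), with 0.42 in EV versus NT, a call lost without any of the NT or EV samples. In OE versus EV its value was -0.16 (adjusted p = 0.0321).

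Each of the other 6 regulators was called in 1 of these 3 comparisons. ARID5B, a DNA-binding cofactor with an intronic element, was higher in KD than in NT (0.49). TSC22D1, a leucine zipper regulator (0.82), ZBTB10, a zinc finger repressor (0.43), and ZMIZ1, a PIAS-like transcriptional coactivator (0.41), were higher in EV than in NT. PIAS1, a SUMO ligase (-0.45), and ELK4, an ETS factor (-0.43), were lower in OE than in EV. The calls of ZBTB10, ZMIZ1, PIAS1 and ELK4 were each lost without at least 1 sample of the lines compared.

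Of the 13 kinases, receptors and signalling genes, 9 were called higher (69.2%, against 16.4% of all tested genes) and 1 lower (7.69%, against 12.8%) in KD versus NT. In EV versus NT 10 were called higher (76.9%, against 5.25%). In OE versus EV 1 was called higher (7.69%, against 11.6%) and 6 lower (46.2%, against 10.3%). SGK1 (minus strand, chr6:134169248-134318112), a serum- and glucocorticoid-regulated kinase, had 1.96 and 2.26 CPM in NT, 6.17, 6.35 and 6.07 in KD, 9.67 and 7.95 in EV and 11.2, 13.8 and 13.6 in OE. The lines did not overlap, in the order NT, KD, EV and OE. SGK1 was higher in EV than in NT (2.06 ± 0.16, adjusted p = 8.33e-10) and in KD than in NT (1.55 ± 0.16, adjusted p = 1.18e-08), and OE versus EV gave 0.54 (adjusted p = 0.000322), short of the limit. PMEPA1 (minus strand, chr20:57648392-57711536), a membrane protein that restrains TGF-beta signalling and is induced by androgen, had 230.3 and 223 CPM in NT, 352, 395 and 358 in KD, 610.4 and 560.2 in EV and 605, 638 and 627 in OE. NT was lowest, KD lay next, and the EV and OE samples overlapped above both. PMEPA1 was higher in KD than in NT (0.70 ± 0.0541) and in EV than in NT (1.37 ± 0.0587, adjusted p = 9.65e-15).

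INPP4B (minus strand, chr4:142023160-142847432), a lipid phosphatase that opposes PI3K signalling, had 13.998 and 15.9 CPM in NT, 22.4, 17.6 and 23.4 in KD, 26.8 and 26.3 in EV and 15.2, 15.3 and 17.6 in OE. Both EV samples lay above the other 8. INPP4B, whose element stands far inside an intron, was higher in EV than in NT (0.83 ± 0.11, adjusted p = 3.02e-06) and lower in OE than in EV (-0.73 ± 0.0994, adjusted p = 1.51e-06), and KD versus NT gave 0.51 (adjusted p = 0.000179). LIFR (minus strand, chr5:38474668-38608354), a cytokine receptor for leukemia inhibitory factor, had 39.4 and 42.7 CPM in NT, 47.3, 40.0 and 48.0 in KD, 63.5 and 63.9 in EV and 39.4, 36.3 and 40.8 in OE. Again the EV samples stood above all others, with 0.63 ± 0.0777 in EV versus NT, -0.71 ± 0.0706 in OE versus EV (adjusted p = 1.42e-08) and 0.14 in KD versus NT (adjusted p = 0.108). The EV versus NT calls of both genes were lost without NT replicate 1, and both calls of INPP4B were lost without EV replicate 1.

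MERTK (plus strand, chr2:111898607-112029561) encodes a receptor tyrosine kinase of the TAM family, and it was called lower in both arms. It had 10.8 and 9.77 CPM in NT, 5.98, 6.08 and 5.37 in KD, 17.4 and 15.4 in EV and 10.8, 11.8 and 11.2 in OE. KD lay below and EV above all other samples, and MERTK was lower in KD than in NT (-0.83 ± 0.11, adjusted p = 4.89e-07), lower in OE than in EV (-0.54 ± 0.0945, adjusted p = 4.06e-05) and higher in EV than in NT (0.67 ± 0.11). The OE versus EV call was lost without either EV sample, OE replicate 1 or OE replicate 3, and the EV versus NT call without any NT or EV sample. NDRG1 (minus strand, chr8:133237175-133302022), a differentiation and stress response gene, had 211 and 203 CPM in NT, 277, 274 and 289 in KD, 245 and 232 in EV and 412, 399 and 432 in OE. The OE samples were the highest and the NT samples the lowest, and NDRG1 was higher in both arms, with 0.44 ± 0.0486 in KD versus NT (adjusted p = 4.34e-08) and 0.79 ± 0.0488 in OE versus EV (adjusted p = 5.28e-12), and 0.21 in EV versus NT was not called.

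Among the rest of the signalling genes, STK39, a kinase that controls cation-chloride cotransporters, was higher in KD than in NT (1.10) and lower in OE than in EV (-0.40, a call lost without EV replicate 1). BMPR1B, a BMP receptor, was 0.83 and -0.45 in the same comparisons, with its second call also lost without EV replicate 1. TNFAIP8, an anti-apoptotic protein (0.81), HOMER2, a scaffold protein of the Homer family (0.60), PLPP1, a phospholipid phosphatase (0.58), and CAMKK2, a kinase upstream of AMPK (0.33), were higher in KD than in NT. All of these but PLPP1 were also higher in EV than in NT, from 0.57 for CAMKK2 to 1.19 for BMPR1B. GNAI3, an inhibitory G protein subunit, was lower in OE than in EV (-0.34), a call lost without either EV sample.

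**Figure D4:**
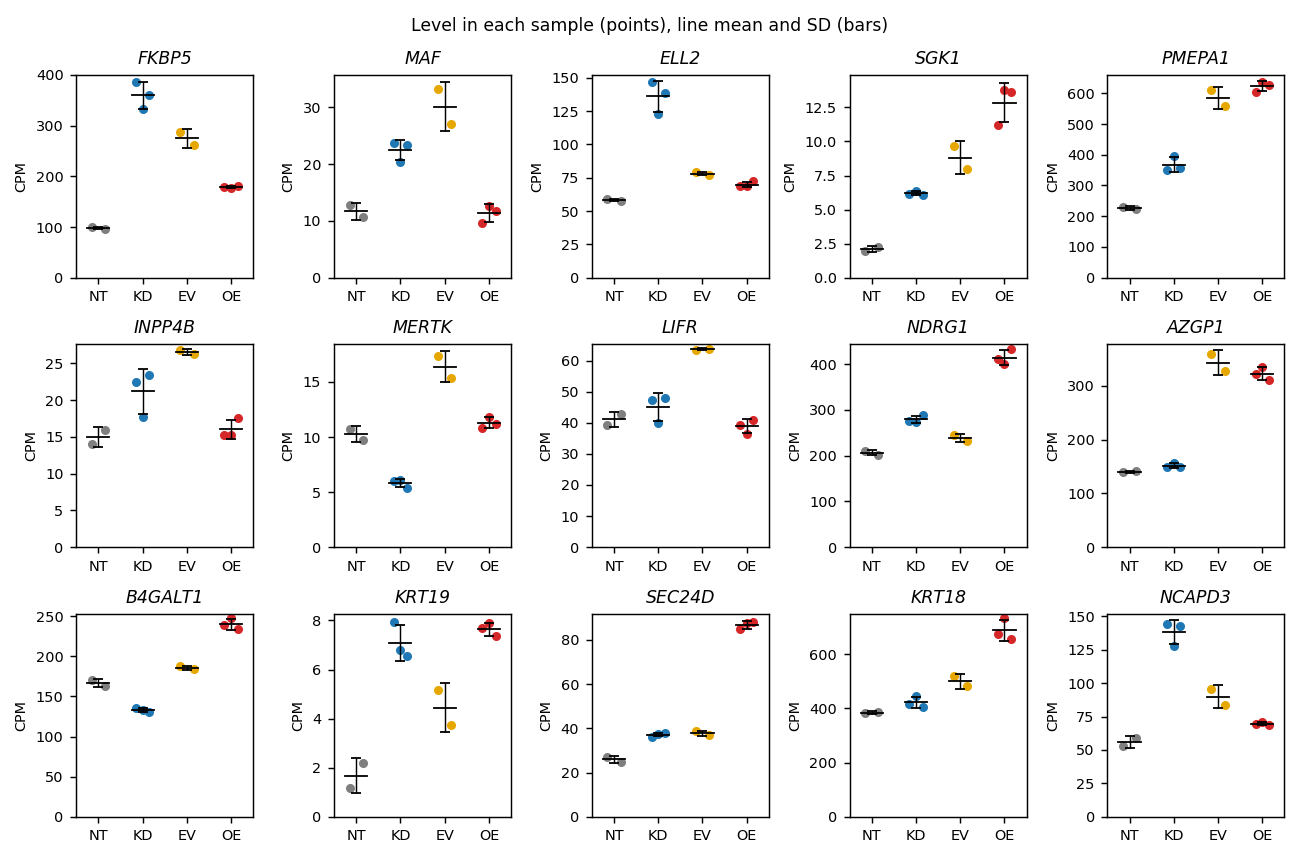
CPM of the 15 genes given by sample (panels, y axis from 0) in the NT, KD, EV and OE lines (x axis), with a point per sample, a line at the mean and bars for the SD. FKBP5, ELL2 and NCAPD3 peak in KD, MAF, INPP4B, LIFR and MERTK peak in EV, and SGK1, NDRG1, B4GALT1, SEC24D and KRT18 peak in OE.

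Of the 12 transport and metabolism genes, 7 were called higher (58.3%, against 16.4% of all tested genes) and 1 lower (8.33%, against 12.8%) in KD versus NT. In EV versus NT 8 were called higher (66.7%, against 5.25%). In OE versus EV 2 were called higher (16.7%, against 11.6%) and 2 lower (16.7%, against 10.3%), both close to the shares of all tested genes. AZGP1 (minus strand, chr7:99966720-99976042), a secreted zinc-binding glycoprotein of prostatic fluid, had 139.1 and 141 CPM in NT, 149.9, 157 and 149 in KD, 359.7 and 327 in EV and 322, 334 and 310.4 in OE. EV and OE overlapped, and both stood far above NT and KD. It was higher in EV than in NT (1.29 ± 0.0554, adjusted p = 9.65e-15), and within the arms its values were 0.12 (95% interval 0.02 to 0.22) in KD versus NT and -0.09 (-0.19 to 0.00) in OE versus EV. B4GALT1 (minus strand, chr9:33104082-33167356), a galactosyltransferase of the Golgi, had 169.9 and 163 CPM in NT, 135.5, 132.5 and 130.2 in KD, 187 and 184 in EV and 239, 247 and 234 in OE. The lines did not overlap, in the order KD, NT, EV and OE, which is also the order of the CPT1A levels. The line means of TSC22D1 and UAP1 had that order too, with KD and NT samples overlapping. How many of all tested genes have it was not counted. B4GALT1 was lower in KD than in NT (-0.33 ± 0.0461, adjusted p = 1.63e-06) and higher in OE than in EV (0.37 ± 0.046, adjusted p = 4.07e-07), with 0.16 in EV versus NT (adjusted p = 0.0174). Its first call was lost without NT replicate 1 and its second without EV replicate 2.

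ABCC4, an exporter of cyclic nucleotides and prostaglandins, was higher in KD than in NT (0.91) and in EV than in NT (1.17) and lower in OE than in EV (-0.41). ANKH, which exports pyrophosphate and holds an intronic element, was higher in KD (0.39) and EV (1.02) than in NT, and the first call was lost without NT replicate 2. Among the enzymes, KD versus NT gave 1.02 for the acyl-CoA binding protein DBI, 0.81 for the fatty acid elongase ELOVL5, 0.64 for the lipid hydrolase ABHD2, 0.47 for the retinaldehyde dehydrogenase ALDH1A3 and 0.41 for sorbitol dehydrogenase, SORD. In EV versus NT these genes ran from 0.45 for DBI, a call lost without any NT or EV sample, to 1.25 for ELOVL5. ELOVL5 was not called in OE versus EV (0.17, adjusted p = 0.00272). UAP1, which makes UDP-N-acetylglucosamine, was higher in OE than in EV (0.28), a call lost without either EV sample. The sulfate transporter SLC26A2 was called in no comparison.

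HPGD, the enzyme that inactivates prostaglandins, was singled out after its values were seen, since its counts were near the floor of 3. It had 4 and 3 counts in NT, 21, 23 and 15 in KD, 15 and 9 in EV and 1, 0 and 0 in OE. It was called lower in OE than in EV (adjusted p = 5.66e-05), a call lost without any EV or OE sample, and no fold is given because all OE samples were under the floor.

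Of the 13 genes of the cytoskeleton, adhesion and trafficking, 5 were called higher in KD versus NT (38.5%, against 16.4% of all tested genes). In EV versus NT 4 were called higher (30.8%, against 5.25%). In OE versus EV 3 were called higher (23.1%, against 11.6%) and 3 lower (23.1%, against 10.3%). KRT19 (minus strand, chr17:41523617-41528308), a keratin of simple epithelia, had 1.17 and 2.18 CPM in NT, 7.93, 6.79 and 6.57 in KD, 5.15 and 3.73 in EV and 7.70, 7.87 and 7.35 in OE, or 31 and 55 counts in NT. The NT samples were the lowest, EV lay next, and KD and OE overlapped. KRT19 was higher in KD than in NT (2.08 ± 0.19, adjusted p = 1.74e-09) and in EV than in NT (1.41 ± 0.22, adjusted p = 2.76e-05), the second lost without NT replicate 1 or EV replicate 1, and OE versus EV gave 0.78 (adjusted p = 0.000229). KRT18 (plus strand, chr12:52948871-52952906), a luminal keratin, had 381 and 388 CPM in NT, 416, 444 and 405 in KD, 519.6 and 480.4 in EV and 675, 731 and 657 in OE. OE was the highest line and NT the lowest, and KRT18 was higher in OE than in EV (0.46 ± 0.0532, adjusted p = 1.48e-07), and higher in EV than in NT (0.38 ± 0.0581, adjusted p = 1.92e-05), a call lost without any NT or EV sample. KD versus NT gave 0.13 (adjusted p = 0.0349). Its partner KRT8 was also higher in OE than in EV (0.32). KRT8, KRT18, XRCC6, DBI and VAPA have near-identical processed copies in the genome, and how reads shared with them were counted is not stated, so their levels are uncertain.

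SEC24D (minus strand, chr4:118722823-118838683), a cargo adaptor of COPII vesicles that leave the endoplasmic reticulum, changed most in OE. It had 26.9 and 24.9 CPM in NT, 36.2, 37.4 and 37.8 in KD, 38.6 and 36.9 in EV and 84.8, 87.5 and 88.2 in OE. KD and EV overlapped between NT and OE, and SEC24D was higher in OE than in EV (1.20 ± 0.0578, adjusted p = 5.16e-14), in KD than in NT (0.52 ± 0.0619) and in EV than in NT (0.54 ± 0.0675), the last lost without NT replicate 2 or EV replicate 1. HERC3, a ubiquitin ligase, was higher in KD (0.84) and EV (0.93) than in NT and lower in OE than in EV (-0.43, lost without either EV sample). ADAMTS1, a secreted metalloprotease (0.52), and TMEM50A, a small membrane protein (0.40, lost without either NT sample), were higher in KD than in NT. ITGAV, an integrin alpha chain (-0.45), and APPBP2, which binds the amyloid precursor protein (-0.33), were lower in OE than in EV, and both calls were lost without either EV sample. For ITGAV, the median of the tested genes within 5 Mb was -0.50, close to its own value, and the genes near FKBP5 had a median of 0.24 against its own -0.62. These were the lowest and the highest such medians of the 51 genes in OE versus EV, and the middle one was -0.09. The part of neighbouring genes was not tested. RAB4A, a recycling GTPase, was lower in KD than in EV (-0.31). MAP7, a microtubule protein, TPD52, a vesicle trafficking protein, and VAPA, a tether of the endoplasmic reticulum, were called in no comparison.

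The 3 genes of chromosome maintenance divided. NCAPD3 (minus strand, chr11:134150113-134225504), a subunit of condensin II, had 52.8 and 59.0 CPM in NT, 144, 128 and 142 in KD, 95.9 and 83.7 in EV and 69.4, 70.9 and 68.5 in OE. The lines did not overlap, in the order NT, OE, EV and KD, the same as for FKBP5, ELL2 and STK39. NCAPD3 was higher in KD than in NT (1.31 ± 0.0658, adjusted p = 3.09e-14) and in EV than in NT (0.68 ± 0.0715), and it was lower in OE than in EV (-0.37 ± 0.064, adjusted p = 3.55e-05), a call lost without EV replicate 1 or any OE sample. XRCC6, the Ku70 subunit of DNA end joining, was higher in KD than in NT (0.29) and in OE than in EV (0.31), both lost without either control sample of their comparison. XRCC5, the Ku80 subunit, which holds an intronic element, was lower in OE than in KD (-0.40). C1orf116, an androgen-responsive gene with no role assigned here, was higher in KD than in NT (0.71), in EV than in NT (0.88) and in OE than in EV (0.28, lost without EV replicate 2).

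The 5 genes with an element did not share 1 pattern. FKBP5, ARID5B and ANKH were called higher in KD versus NT, FKBP5, INPP4B and ANKH in EV versus NT, and FKBP5 and INPP4B were called lower in OE versus EV. XRCC5 was called in none of these comparisons.

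A second list of 33 androgen-responsive genes, of which 32 were tested, was read the same way. In KD versus NT, 15 were called higher (46.9%, against 16.4% of all tested genes) and 4 lower (12.5%, against 12.8%), with a median of 0.25. MAK, a germ cell and prostate kinase (1.25), and CENPN, a centromere protein (1.23), stood at the top and HSD17B14, a steroid dehydrogenase family member (-1.37), and SLC38A2, an amino acid transporter (-0.79), at the bottom. In EV versus NT, 9 were called higher (28.1%, against 5.25%) and 2 lower (6.25%, against 2.91%), with a median of 0.19. The largest changes were those of AKAP12, a kinase scaffold (2.74), and CENPN (1.97) against LMAN1, a cargo receptor (-0.39), and SLC38A2 (-0.34), and the lower count was 0 without any NT or EV sample. In OE versus EV, 5 were called higher (15.6%, against 11.6%) and 8 lower (25%, against 10.3%), with a median of -0.01. The largest were those of SRF, a transcription factor of serum response (0.66), and ADRM1, a proteasome ubiquitin receptor (0.56), against HSD17B14 (-1.19) and CDC14B, a phosphatase (-1.17). There the higher count was 9 without KD replicate 2, and the lower count was 4 without EV replicate 1 and 5 without EV replicate 2.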

How the data were processed

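RNA was sequenced as paired-end libraries from 10 samples of 4 LNCaP-C4-2 lines. The authors trimmed adapters with BBDuk, aligned with STAR (2.6.0a in the submitters' processing notes) to Ensembl hg38.p12, and deposited whole-number counts per gene symbol. The strand setting and the treatment of reads with several positions are not given in the sources used here. The submitters' notes also name limma.

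From the deposited counts, filterByExpr kept 17230 of 57353 symbols, libraries were scaled by TMM, and edgeR 4.0.16 (R 4.3.3) fitted 1 quasi-likelihood model over the 4 lines, used for 6 pairwise comparisons and the interaction. P-values were adjusted by Benjamini-Hochberg over all tested genes, with calls at an adjusted p under 0.0001. The standard error is the absolute log2 fold change divided by the square root of F. The scripts were tested on simulated data. The common biological coefficient of variation was 0.0446. Samples of a line differed beyond sampling noise in each pair (chi-square over degrees of freedom 2.04 to 7). Nothing states whether samples of a line came from separate cultures. Intervals and floors cover counting or sample spread only.

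The 51 genes and the other lists were chosen with earlier results of these data known, so their counts and directions are not independent evidence. Values by sample are given for FKBP5 and for genes among the 4 highest and the 4 lowest called log2 fold changes of KD versus NT, OE versus EV, EV versus NT or OE versus KD given an average log2 CPM of 1 or more, and the others by role in order of size. Genes of other lists that are named are steroid receptors and the 2 largest called changes in each direction, and some genes are not reported here. Gene positions were read from GENCODE 44 on hg38 and promoters from RefSeq, where 12 of the 51 had no match. The alternatives changed the scaling (size factors of DESeq2, or library size alone), the filter (none, or a minimum of 10 counts in each sample), the test (limma-voom with limma 3.58.1, or the Wald test of DESeq2 1.42.0), the model (a replicate block, or only the lines compared), the limit (adjusted p under 0.05) and the samples (each left out in turn).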

Additional observations from a re-analysis of the deposited data

How the results depend on the processing

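No called value of the 51 genes changed direction under any alternative. Of 1775 such values under the alternatives that kept all samples of the lines compared, 1740 kept their call and 35 lost it. These alternatives include the looser limit on the same fit, where a call cannot be lost. Of 2010 with 1 sample left out, 1833 kept the call and 177 lost it, and that sample was often from a line outside the comparison. Scaling by library size alone shifted the median of all tested genes to -0.12 in OE versus EV, -0.15 in OE versus KD, -0.12 in OE versus NT and -0.15 in the interaction, and the medians of the 51 genes became -0.16, -0.22, 0.30 and -0.61, with 4 genes higher in OE versus EV. It also moved the share of all calls that were higher from 53% to 36% in OE versus EV, from 48.6% to 31% in OE versus KD and from 43.6% to 24.6% in the interaction. The interaction gave 4 higher genes with no filter and 4 with the DESeq2 Wald test, which gave 1 lower gene in EV versus NT. With only the lines compared in the fit there were 2 lower genes in EV versus NT and 7 in KD versus EV. At an adjusted p under 0.05 there were 13 higher in OE versus EV, 2 lower in EV versus NT, 24 lower in KD versus EV, 7 lower in OE versus NT and 6 higher in the interaction. Leaving out each sample in turn gave 1 to 2 lower genes in KD versus NT, 3 to 11 higher and 5 to 18 lower in OE versus EV, 0 to 1 lower in EV versus NT, 6 to 11 higher and 7 to 17 lower in KD versus EV, 1 to 4 lower in OE versus NT and 2 to 4 higher in the interaction. The causes of these shifts were not tested, except that a fit without a sample has fewer degrees of freedom. The share of all tested genes called was not counted at the looser limit or with a sample left out. On average, samples with the same replicate number in different lines deviated together little more than others (mean r 0.0102 over 13 pairs, -0.00535 over 24 others). The largest r was 0.234 among the first and 0.108 among the others. Replicate 2 differed most from the others in KD (chi-square over degrees of freedom 6.8 and 7, against 2.3 for replicates 1 and 3) and in OE (3.88 and 4.47, against 2.17). Whether the numbers mark a shared batch was not tested. The replicate block gave 28 higher and 2 lower in KD versus NT, 8 and 16 in OE versus EV and 32 and 0 in EV versus NT. Genes with few counts, HPGD, KRT19 and SGK1, carry the widest errors.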

Other observations

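Genes that glucocorticoids induce in many tissues were described beside the androgen-responsive genes, since both hormones act through nearly the same element. Of 7 listed, 6 were tested. In KD versus NT, 2 were called higher (33.3%, against 16.4% of all tested genes) and 3 lower (50%, against 12.8%) by edgeR. TSC22D3 (GILZ), an anti-inflammatory leucine zipper protein, was lower in KD than in NT (-0.83 ± 0.0682) and higher in OE than in EV (1.02 ± 0.0692), and DUSP1, a MAP kinase phosphatase, was -0.65 and 0.78 in the same comparisons. ZBTB16, a zinc finger repressor, was higher in KD (0.45) and in EV (0.57) than in NT. In EV versus NT it was the 1 gene of the list called (16.7%, against 5.25% of all tested genes). CRISPLD2 was the other gene called higher in KD versus NT (2.59), on 8 and 2 counts in NT and 40, 22 and 35 in KD, and 1 was left without NT replicate 1, NT replicate 2, KD replicate 1 or KD replicate 3. KLF9 was the 1 lower gene in OE versus EV (-0.40), which is 16.7% of the list against 10.3% of all tested genes. That count was 0 without either EV sample.

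Of 5 genes that androgen is known to repress, 4 were tested. In KD versus NT 2 were called lower (50%, against 12.8% of all tested genes). There was 1 lower in EV versus NT (25%, against 2.91%) and 1 in OE versus EV (25%, against 10.3%). The list also held genes that went up. At an unadjusted p under 0.05 by edgeR, 1 was higher and 3 lower in KD versus NT. At that limit 1 was higher and 2 lower in EV versus NT, and 0 higher and 2 lower in OE versus EV. OPRK1, the kappa opioid receptor, had 70 and 57 counts in NT, 8, 6 and 7 in KD, 10 and 14 in EV and 14, 9 and 7 in OE. It was lower in KD than in NT (-3.23 ± 0.32) and in EV than in NT (-2.35 ± 0.32), the second lost without NT replicate 1 or EV replicate 1, and 2 genes of the list were lower in EV versus NT without KD replicate 1 or KD replicate 2. FOLH1, the prostate-specific membrane antigen, was lower in KD than in NT (-0.55). CCN3, a matricellular protein, had 19 and 7 counts in NT, 3, 9 and 4 in KD, 52 and 51 in EV and 2, 2 and 4 in OE, and it was lower in OE than in EV (adjusted p = 4.72e-08 by edgeR's quasi-likelihood test).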
